A study of Homo sapiens with 3 samples.

Results

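PAX3, PAX7, FOXO1, FOXO3 and FOXO4 encode the transcription factors that supply, or are related to, both parts of the PAX3-FOXO1 fusion of alveolar rhabdomyosarcoma (ARMS). They were chosen by gene symbol, as all probe sets that the platform annotation pairs with these 5 of 19775 measured genes. This gave 17 of 42892 named probe sets, a probe set being a group of short probes on the array that together read 1 transcript or a few. Of these, 14 carry a single gene name and 3 are named for both FOXO3 and FOXO3B, a near-identical copy of FOXO3, and those 3 are shown apart.

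Rh-30, an established line of human ARMS cells with the PAX3-FOXO1 fusion, was transfected with siPF, an siRNA designed across the point where PAX3 and FOXO1 sequence join, with siB7-H3, an siRNA against B7-H3 (CD276), or with a control siRNA (siCont), each at 5 nM. RNA of the cultures, taken after 24 h, was measured on Affymetrix U133 Plus 2.0 expression arrays, 3 in all and 1 for each condition. Each target had 1 siRNA and each condition 1 array of 1 cell line. Replicate error is therefore unknown, no condition was tested against another, and a difference given below is one between single arrays.

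PAX3 and PAX7 bind DNA through a paired domain and a homeodomain, and in the embryo they keep muscle progenitors and neural crest cells in a precursor state. The FOXO proteins bind DNA through a forkhead domain and turn on genes of cell cycle arrest, cell death and stress resistance, and phosphorylation by AKT moves them out of the nucleus. In the fusion protein the DNA-binding domains of PAX3 are joined to the activating part of FOXO1. The fusion transcript starts at the PAX3 promoter and ends in FOXO1 sequence, and ARMS without it often carries PAX7-FOXO1 instead. Probe sets of this array type lie mostly towards the 3' end of the transcript they were designed on. The positions of the single probes were not used here, so it was not determined which of the normal and fused transcripts a PAX3 or FOXO1 probe set reads.

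The values are intensities on a linear scale, and differences are given as log2 differences, where 1 is 2-fold. Dim probe sets varied most. When the named probe sets were ranked by mean log2 intensity and cut into 10 bands of equal size, 50.3% of the dimmest band were at least 2-fold apart between siPF and siCont, against 0.839% of the brightest band. A level rule was therefore applied: at least the brighter array of each pair had to be at or over the 60th percentile of the named probe sets on it, an intensity of 227 for siPF, 223 for siB7-H3 and 224 for siCont. Against siCont, the median log2 difference of all named probe sets was 0.02 for siPF and 0.0011 for siB7-H3. The 45 probe sets of bacterial and phage control transcripts had medians of 0.20 for siPF and 0.25 for siB7-H3. They ranged widely, from -0.57 to 1.34 for siPF and from -0.86 to 1.76 for siB7-H3, and the level rule was not applied to them. The 2 medians lie in the direction of the FOXO3 differences below, and the part of the control shift in those differences was not tested. The ratio of the 3' to the 5' probe set of GAPDH was 0.941 for siPF, 0.925 for siB7-H3 and 0.907 for siCont. For ACTB it was 0.963 for siPF, 1.02 for siB7-H3 and 0.991 for siCont, so the order of the arrays differed between these genes. CD276, the target of siB7-H3, had an intensity of 1381 in siPF, 362 in siB7-H3 and 1486 in siCont at its brightest probe set. At 1552914_a_at its log2 difference to siCont was -0.40 for siPF and -5.34 for siB7-H3, while 1559583_at, which is dim, was higher than siCont in both, at 0.51 for siPF and 0.62 for siB7-H3. Of 11 muscle lineage and ARMS markers 8 passed the level limit, led by MYOD1 at 11471 in siCont, while MYF6, CDH3 and TFAP2B were dim. The summed intensity of the 11 was 35979 in siPF, 39285 in siB7-H3 and 33257 in siCont, and its members went opposite ways in siPF. MYOD1, at 8688 in siPF, and FGFR4, at 5182 in siPF and 6854 in siCont, were lower than in siCont. MYOG, given below, and DES, at 4533 in siPF and 2776 in siCont, were higher, as were CHRND, CHRNA1, CDH15 and MYCN. In siB7-H3 all 8 were higher than in siCont, including MYOD1 at 13046 and FGFR4 at 7100. Of the measured markers, 5 epithelial, 4 blood, 2 liver and 3 neural crest, none passed the level limit. Of 3 endothelial markers PECAM1 passed it, at 621 in siPF, 910.1 in siB7-H3 and 699 in siCont.

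FOXO1 was 2.72-fold and 4.05-fold lower in siPF than in siCont at its 2 brighter probe sets, while siB7-H3 was within 0.07 of siCont on the log2 scale at both. The 3' portion of the fused transcript is FOXO1 sequence, and the normal FOXO1 protein acts in insulin signalling and in muscle wasting. At probe set 202724_s_at the intensity was 249 in siPF, 650.0 in siB7-H3 and 678 in siCont. Against siCont, siPF had a log2 difference of -1.45 and siB7-H3 one of -0.06. At 202723_s_at it was 88.4 in siPF, under the level limit, and 373 in siB7-H3 and 358 in siCont, both over it. Here siPF had a log2 difference of -2.02 to siCont and siB7-H3 one of 0.06. At both probe sets the siPF array stood alone at the low end and the other 2 arrays lay close together. The direct comparison of siPF with siB7-H3, which does not use the siCont array, gave log2 differences of -1.38 and -2.08. In the brightness band of each, 0.0933% of 4289 probe sets were at least as far below siCont in siPF. In RNA of a whole culture, fewer cells with a transcript and less of it per cell cannot be told apart. The third FOXO1 probe set, 228484_s_at, was close to the bottom of the scale, with 4.203 in siPF, 6.41 in siB7-H3 and 7.62 in siCont. Its log2 difference was -0.86 in siPF, and in its band 28.5% of probe sets were at least as far below. All 3 FOXO1 probe sets carry the suffix _s_at, which marks probes shared by several transcripts.

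PAX3, which supplies the 5' part of the fusion, was at most 1.20-fold lower in siPF than in siCont at its 2 brighter probe sets. At 231666_at the intensity was 329 in siPF, 398 in siB7-H3 and 381 in siCont, log2 differences to siCont of -0.21 for siPF and 0.06 for siB7-H3. At 207680_x_at, whose suffix marks probes that can also bind unrelated transcripts, it was 194 in siPF, 154 in siB7-H3 and 233 in siCont, log2 differences of -0.27 for siPF and -0.60 for siB7-H3. The lowest array was siPF at the first probe set and siB7-H3 at the second, so the PAX3 probe sets did not share the order seen at FOXO1. The 2 dim PAX3 probe sets lay above siCont in siPF. At 207679_at the values were 69.9 in siPF, 48.4 in siB7-H3 and 24.5 in siCont, which put siPF past 2-fold with a log2 difference of 1.51 and siB7-H3 just short of it with 0.98. At 216059_at they were 32.7 in siPF, 14.6 in siB7-H3 and 22.0 in siCont, so siB7-H3 was below siCont and siPF above it. In the band that holds 207679_at, 28.4% of probe sets were past 2-fold between siPF and siCont, and 6.95% were at least as far above siCont.

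**Figure D1:**
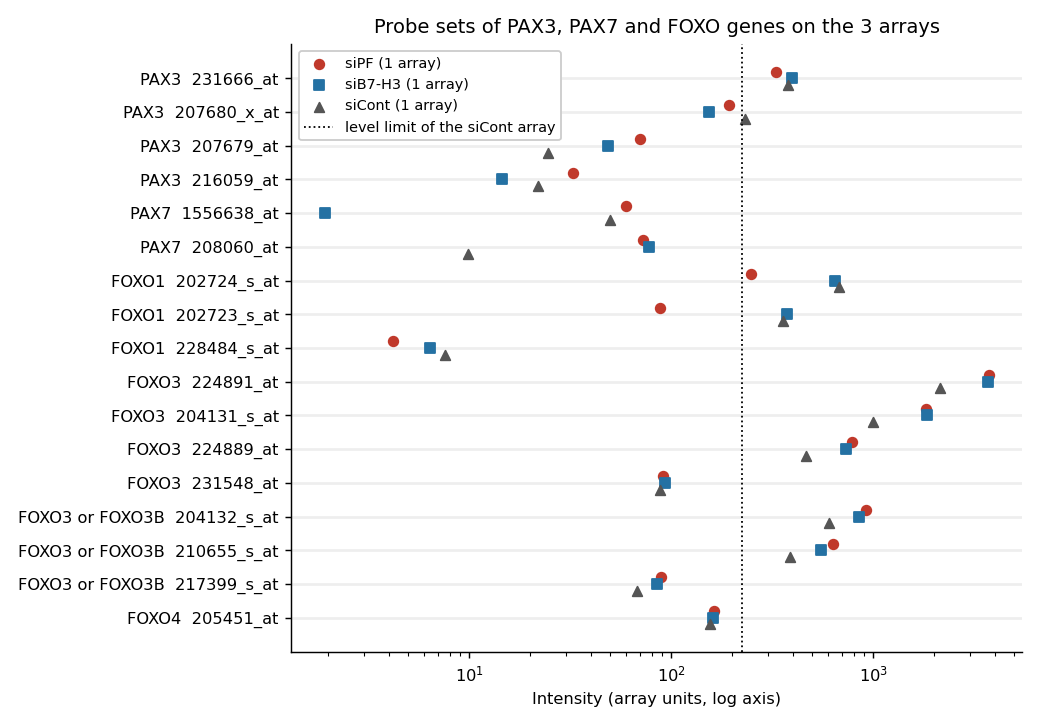
Intensity of each of the 17 probe sets on the siPF, siB7-H3 and siCont arrays, 1 point per array, on a log axis. The siPF points of the 2 brighter FOXO1 probe sets (249 and 88.4) lie left of both other arrays, the siCont points of most FOXO3 probe sets lie left of both knockdown arrays, and the dotted line marks the siCont level limit of 224.

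The FOXO1 signal can hold 2 kinds of transcript, those started at the FOXO1 promoter and fusion transcripts started at the PAX3 promoter, so both start regions are shown. Each sequence is the 250 bases before the RefSeq start (GRCh38.p14), read 5' to 3' on the minus strand of its chromosome, at chr2:222298999-222299248 for PAX3 and chr13:40666642-40666891 for FOXO1. Capitals mark CCAAT on either strand, a box of many promoters, which 32% of 35114 RefSeq start regions of this length hold.
PAX3: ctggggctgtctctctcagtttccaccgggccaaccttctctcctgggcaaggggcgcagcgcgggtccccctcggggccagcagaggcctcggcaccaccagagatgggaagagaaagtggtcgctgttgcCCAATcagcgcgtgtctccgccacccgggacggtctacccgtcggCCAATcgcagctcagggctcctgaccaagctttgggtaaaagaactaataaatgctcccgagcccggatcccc
FOXO1: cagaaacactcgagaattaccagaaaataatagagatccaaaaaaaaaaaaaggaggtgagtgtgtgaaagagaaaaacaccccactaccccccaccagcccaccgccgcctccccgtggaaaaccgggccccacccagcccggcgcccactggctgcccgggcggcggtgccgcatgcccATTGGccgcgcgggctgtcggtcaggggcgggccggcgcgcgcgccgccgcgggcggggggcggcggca
PAX3 has 2 such boxes, starting 118 and 73 bases before its start, and FOXO1 has 1 on the opposite strand, 69 bases before. Neither region holds the paired domain core GTCACGC (in 2.20% of regions), the homeodomain core TAATTA (4.35%, the same on both strands) or the FOXO core GTAAACA (2.98%), on either strand. GC made up 64.0% of the PAX3 region and 67.2% of the FOXO1 region. These are matches of letters and show no binding.

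PAX7, the relative of PAX3 that marks muscle stem cells, was dim on all arrays, and its 2 probe sets did not move together. At 208060_at the intensity was 72.2 in siPF, 77.3 in siB7-H3 and 9.85 in siCont, so both knockdown arrays were high and siCont low. The log2 difference to siCont was 2.88 for siPF and 2.97 for siB7-H3. At 1556638_at it was 59.7 in siPF, 1.93 in siB7-H3 and 49.6 in siCont, so here siB7-H3 alone was low, with log2 differences of 0.27 in siPF and -4.69 in siB7-H3. No PAX7 value reached the level limit. In the band of 208060_at siPF had 0.723% of probe sets at least as far above siCont and siB7-H3 had 0.583%. In the band of 1556638_at, siB7-H3 had 0.0466% at least as far below. The platform annotation pairs the first with a RefSeq transcript of PAX7 and the second with an expressed sequence tag.

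FOXO3 was higher than siCont on both knockdown arrays, by less than 2-fold, and all 7 probe sets lay above siCont in both. FOXO3 is a FOXO factor that turns on autophagy and atrophy genes in muscle. At 224891_at, the brightest member probe set, the intensity was 3749 in siPF, 3701 in siB7-H3 and 2149 in siCont, log2 differences of 0.80 for siPF and 0.78 for siB7-H3. At 204131_s_at it was 1820 in siPF, 1844 in siB7-H3 and 998 in siCont, or 0.87 for siPF and 0.89 for siB7-H3. At 224889_at it was 788 in siPF, 736 in siB7-H3 and 466 in siCont, or 0.76 for siPF and 0.66 for siB7-H3. The siCont array was the low one at all 3, and the knockdown arrays lay within a log2 difference of 0.10 of each other. The fourth, 231548_at, was dim and nearly level, with 90.7 in siPF, 93.1 in siB7-H3 and 87.9 in siCont.

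The 3 probe sets named for FOXO3 and FOXO3B together were also lowest in siCont, by smaller steps than the 3 bright ones above. At 204132_s_at the intensity was 921 in siPF, 848 in siB7-H3 and 607 in siCont. At 210655_s_at it was 633 in siPF, 549 in siB7-H3 and 387 in siCont, and at 217399_s_at, which is dim, 89.4 in siPF, 84.7 in siB7-H3 and 67.9 in siCont. Their log2 differences to siCont ran between 0.40 and 0.71 in siPF and between 0.32 and 0.50 in siB7-H3. Signal of FOXO3 and of its copy cannot be told apart at these 3. In the brightest band, which holds 224891_at, siPF had 0.956% of probe sets at least as far above siCont and siB7-H3 had 0.746%. At the 4 other bright probe sets, each in its own band, this share was larger. It was 1.66% for siPF and 0.956% for siB7-H3 at 204131_s_at, and 2.47% for siPF and 2.82% for siB7-H3 at 224889_at. It was 2.96% for siPF and 6.04% for siB7-H3 at 210655_s_at, and 4.76% for siPF and 6.60% for siB7-H3 at 204132_s_at. The SD of all log2 differences in the brightest band was 0.28 for siPF and 0.26 for siB7-H3. The siCont array is common to both of these differences. Between siPF and siB7-H3, the 7 probe sets ranged only between -0.04 and 0.21. After each array was centred on its median, the 7 ranged between 0.02 and 0.85 in siPF and between 0.08 and 0.89 in siB7-H3.

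The RefSeq table used here holds 4 start regions of FOXO3, and 1 of them has the shorter forkhead core TAAACA, which lies within GTAAACA and is found on either strand in 11% of start regions. The match starts 233 bases before the start. None of the 8 start regions of the 5 genes holds GTAAACA or GTCACGC, and that of FOXO4 holds TAATTA, 158 bases before its start.

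FOXO4, the X-linked FOXO factor, had 1 probe set, which was 1.05-fold higher in siPF and 1.04-fold higher in siB7-H3 than in siCont. Its intensity at 205451_at was 163 in siPF, 162 in siB7-H3 and 155 in siCont, at the 55.7th, 55.9th and 55.4th percentile of named probe sets and so under the level limit. The log2 difference to siCont was 0.07 for siPF and 0.06 for siB7-H3.

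**Figure D2:**
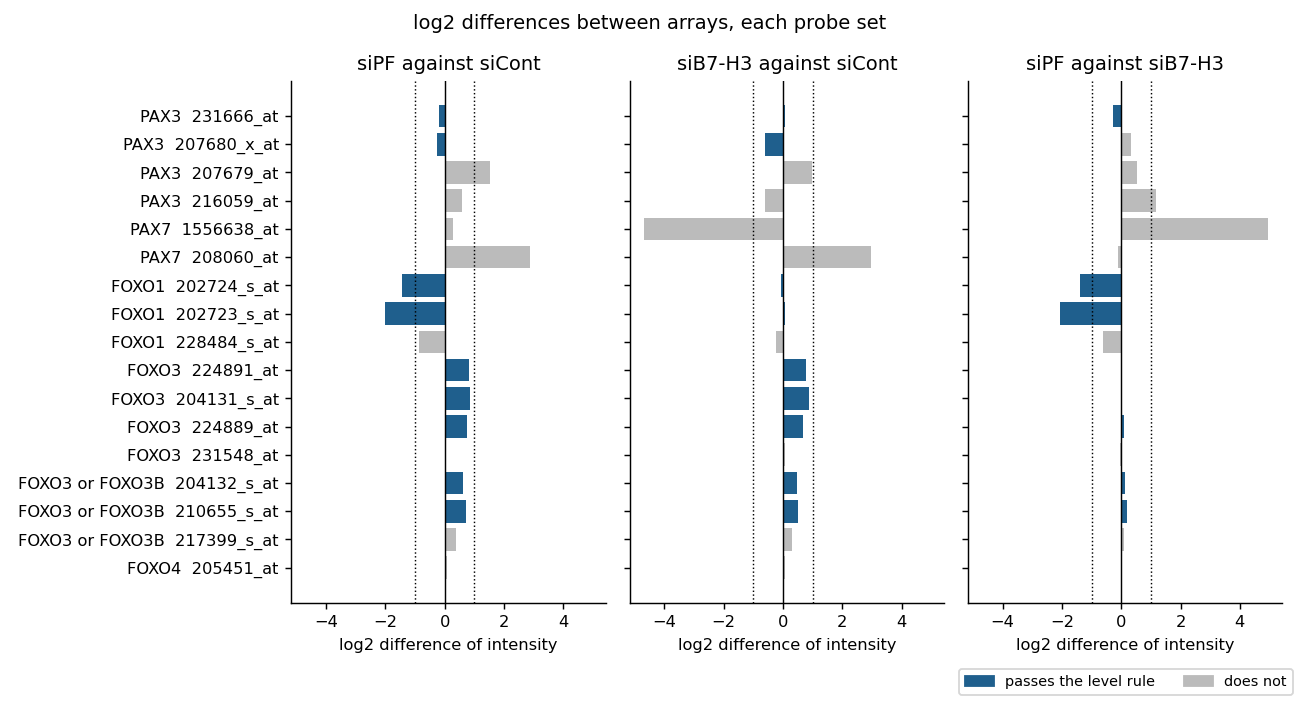
Log2 difference of each of the 17 probe sets for siPF against siCont, siB7-H3 against siCont and siPF against siB7-H3 (bars, 1 per probe set; dotted lines at 2-fold). Blue bars passed the level rule and grey bars did not, and the bars past 2-fold in blue are those of 202724_s_at and 202723_s_at of FOXO1.

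Counted over all 17 probe sets, 2 were at least 2-fold lower in siPF than in siCont and 2 at least 2-fold higher. The backgrounds over 42892 named probe sets were 10.2% lower and 10.6% higher. The 2 lower ones were FOXO1 and the 2 higher ones were the dim probe sets 207679_at of PAX3 and 208060_at of PAX7. In siB7-H3, 1 was lower and 1 higher, both of PAX7, against backgrounds of 10.5% and 9.75%. For siPF against siB7-H3, 2 were lower, both of FOXO1, and 2 higher, 216059_at of PAX3 and 1556638_at of PAX7, against 9.78% and 10.9%.

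Under the level rule, 9 of the 17 remained in the siPF comparison, and the 2 of FOXO1 were past 2-fold lower and none higher. Of those 2, 202723_s_at passed through siCont alone, since its siPF value of 88.4 lay under the limit of 227. The background was 0.927% lower and 1.18% higher of 17801 probe sets. In siB7-H3, 9 passed the rule and none was past 2-fold, with backgrounds of 0.744% lower and 0.682% higher of 17732. For siPF against siB7-H3, 8 passed, and the 2 of FOXO1 were again lower, against 0.682% lower and 0.699% higher of 17741.

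**Figure D3:**
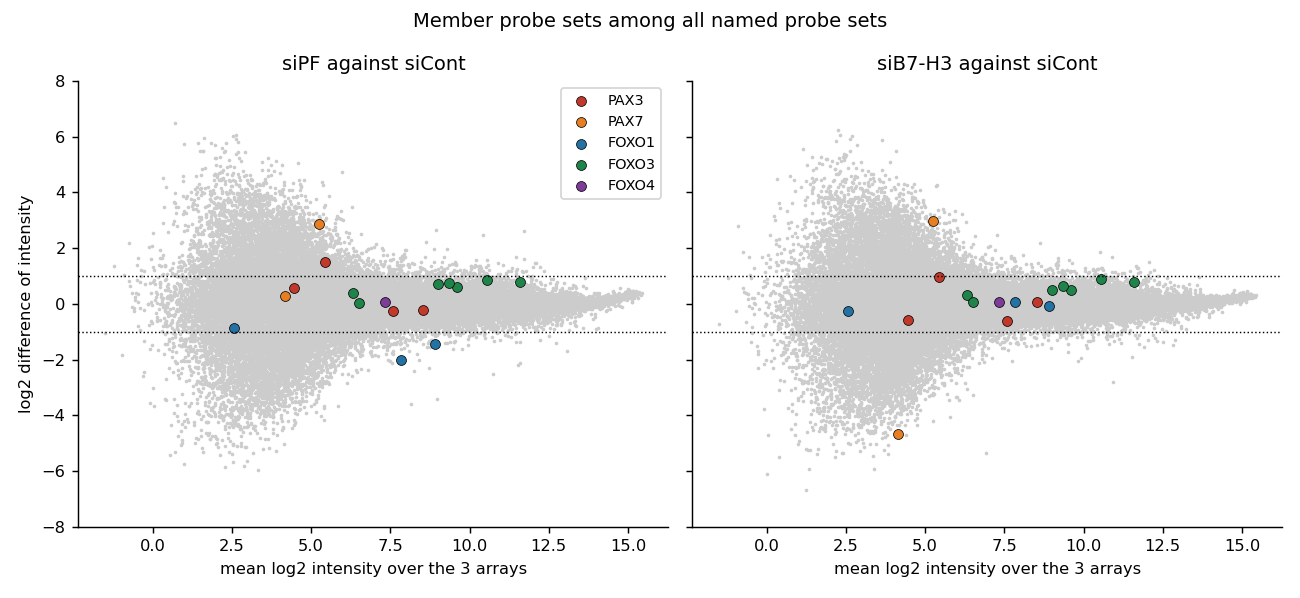
Log2 difference to siCont (vertical axis) against mean log2 intensity over the 3 arrays (horizontal axis) for 42892 named probe sets in grey, with the 17 member probe sets coloured by gene, for siPF and siB7-H3. The 2 bright FOXO1 points lie at -1.45 and -2.02 in siPF and within 0.07 of 0 in siB7-H3, and the spread of the grey points narrows with brightness.

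Few genes lay close to FOXO1, whose siPF value was far from 0. Likeness was the distance between pairs of log2 differences, siPF and siB7-H3 each against siCont, over 2 values from 3 arrays and among 9552 other genes at or over the level limit on any array. Of these, 2 lay within 0.1 of FOXO1, 26 within 0.1 of FOXO3 and 403 within 0.1 of PAX3, whose values were near 0. Such counts depend on the distance from 0, since genes far from it are sparse. The 2 brighter FOXO1 probe sets, with log2 differences of -1.45 and -2.02 in siPF, were themselves further apart than 0.1. The 5 nearest to FOXO1 were DNM3, a dynamin, FERMT3, an integrin-binding kindlin, THOC7, a subunit of the mRNA export complex THO, STX11, a syntaxin, and MME, the membrane peptidase neprilysin. DNM3 had 102 in siPF, 258 in siB7-H3 and 274 in siCont, and its 2 other probe sets did not share its pattern, with log2 differences of 0.23 and 0.04 in siPF. FERMT3 had 85.2 in siPF, 230.3 in siB7-H3 and 239 in siCont. Both were thus about as dim on the siPF array as FOXO1 at 202723_s_at. THOC7 had 1701 in siPF, 4028 in siB7-H3 and 4366 in siCont. MME had 1102 in siPF, 2550 in siB7-H3 and 2721 in siCont, and its other probe set gave log2 differences of -0.84 for siPF and -0.22 for siB7-H3. STX11 had 118 in siPF, 338 in siB7-H3 and 354 in siCont, with -1.53 for siPF and -0.69 for siB7-H3 at its other probe set.

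Other PAX genes were mostly dim. Of PAX1, PAX2, PAX4, PAX5, PAX6, PAX8 and PAX9, PAX6 and PAX8 passed the level rule. PAX6, an eye and neural factor, had 318 in siPF, 231 in siB7-H3 and 325 in siCont, and PAX8, a thyroid and kidney factor, had 433 in siPF, 411 in siB7-H3 and 630 in siCont. The 7 other PAX8 probe sets disagreed, with log2 differences of -1.79 to 0.21 in siPF and -2.44 to 0.23 in siB7-H3. Among 14 measured FOX genes outside the FOXO genes above (FOXO6 included), 11 passed the rule and none was past 2-fold in either knockdown. The shares over all genes were also small, 0.823% lower and 1.18% higher in siPF and 0.625% lower and 0.604% higher in siB7-H3. FOXM1, a driver of mitotic genes, had 3814 in siPF, 3598 in siB7-H3 and 3853 in siCont. FOXO6, read by a probe set with the _x_at suffix, had 4232 in siPF, 3325 in siB7-H3 and 2845 in siCont.

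Of regulators that act on FOXO proteins, 1 was past 2-fold, higher on both knockdown arrays. Of 36 measured, 34 passed the rule in siPF, with 18 above and 16 below siCont, and 33 passed in siB7-H3, with 19 above and 14 below. Of all named probe sets under the rule, 52.2% lay above siCont in siPF and 51.6% in siB7-H3. Over all genes under the rule, siPF had 1.18% past 2-fold higher and 0.823% lower, and siB7-H3 had 0.604% higher and 0.625% lower. The gene past 2-fold was YWHAH, a 14-3-3 protein, the family that holds phosphorylated FOXO in the cytoplasm. It had 4058 in siPF, 4554 in siB7-H3 and 1780 in siCont, log2 differences of 1.19 for siPF and 1.36 for siB7-H3. However, its 2 other probe sets lay below siCont, at -0.48 and -0.35 in siPF and at -5.38 and -0.35 in siB7-H3. AKT1, the kinase that inhibits FOXO, had 1446 in siPF, 1240 in siB7-H3 and 1422 in siCont. SKP2, the ubiquitin ligase subunit that marks FOXO1 for breakdown, had 11625 in siPF, 19779 in siB7-H3 and 21339.7 in siCont. Its log2 difference was -0.88 in siPF and -0.11 in siB7-H3. The other SKP2 probe sets gave -1.29 and -1.41 in siPF and -0.88 and -0.44 in siB7-H3. IRS2, an insulin receptor substrate, had 2561 in siPF, 3302 in siB7-H3 and 1865 in siCont, and MAPK8, a stress kinase, 702 in siPF, 1213 in siB7-H3 and 1227 in siCont.

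Of 47 measured genes reported as FOXO targets, 34 passed the rule in siPF, 23 above and 11 below siCont, with 3 past 2-fold higher and none lower, against 1.18% and 0.823% over all genes. Their median was 0.12 in siPF and, for those that passed in siB7-H3, also 0.12, beside 0.02 over all genes under the rule in each. The siCont array is common to both. Among all named probe sets under the rule, the share above siCont was 52.2% in siPF and 51.6% in siB7-H3. CCNG2, a cyclin of cell cycle arrest, had 6345 in siPF, 4424 in siB7-H3 and 2509 in siCont, a log2 difference of 1.34 in siPF, with -0.21 to 0.73 at its other probe sets. BCL2L11, the death factor BIM, had 1195 in siPF, 852 in siB7-H3 and 582 in siCont (1.04 in siPF, and 0.12 to 1.28 at the other probe sets). ERBB3, a receptor tyrosine kinase, had 1252 in siPF, 960.1 in siB7-H3 and 618 in siCont, or 1.02 in siPF, with -0.46 to 0.70 elsewhere. In siB7-H3, 33 passed, 21 above and 12 below, and 1 was past 2-fold higher (0.604% over all genes), PPARGC1A, a coactivator of mitochondrial genes, with 386 in siPF, 469 in siB7-H3 and 224 in siCont. Its other probe set gave -0.49 in siB7-H3. CDKN1B, the cell cycle inhibitor p27, was level in siPF, with 5183 in siPF, 4049.6 in siB7-H3 and 4963 in siCont, and S1PR1, a sphingosine phosphate receptor, had 394 in siPF, 496 in siB7-H3 and 718 in siCont.

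Genes reported to work with or under PAX3 and PAX7 went both ways. Of 37 measured, 20 passed the rule in siPF, 2 past 2-fold higher and 1 lower, against 1.18% higher and 0.823% lower over all genes. In siB7-H3 19 passed, 2 past 2-fold higher and none lower, against 0.604% and 0.625%. MYOG, the gene of myogenin, had 3386 in siPF, 1269 in siB7-H3 and 605 in siCont, log2 differences of 2.48 for siPF and 1.07 for siB7-H3. TGFB2, a growth factor, passed the rule through siPF alone, with 259 there, 94.5 in siB7-H3 and 99.6 in siCont. Its other probe sets had log2 differences of 0.04 to 5.23 in siPF. CXCR4, a chemokine receptor, had 436 in siPF, 732 in siB7-H3 and 947 in siCont, a log2 difference of -1.12 in siPF, with -0.61 and -0.57 at its other probe sets. MSX1, a homeobox repressor of differentiation, had 1005 in siPF, 1259 in siB7-H3 and 628 in siCont, just past 2-fold in siB7-H3, with a log2 difference of 0.23 at its other probe set there. MYF5, a muscle determination factor and PAX3 target, had 213 in siPF, 342 in siB7-H3 and 415 in siCont, a log2 difference of -0.96 in siPF.

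Of genes reported as targets of the fusion, 4 were past 2-fold lower in siPF and none in siB7-H3, beside 0.823% of all genes under the rule in siPF and 0.625% in siB7-H3. Like the other lists, this one was written from general knowledge, with earlier results of these data known. All 30 genes on it were measured and 22 passed the rule. In siPF 13 of these were below and 9 above siCont, none was past 2-fold higher (1.18% over all genes), and the median was -0.40, beside 0.02 over all genes. In siB7-H3 8 were below and 14 above, none past 2-fold in either direction, with a median of 0.03, beside 0.02 over all genes. The share of all named probe sets under the rule above siCont was 52.2% in siPF and 51.6% in siB7-H3. ASS1, which makes argininosuccinate, had 1172 in siPF, 4762 in siB7-H3 and 5095 in siCont. POU4F1, a neuronal POU factor, had 676 in siPF, 1576 in siB7-H3 and 1542 in siCont, with -1.63 at its other probe set in siPF, and ABAT, which breaks down GABA, had 3487 in siPF, 7343 in siB7-H3 and 7761 in siCont, with -0.83 and -0.87 at its other probe sets in siPF. CXCR4 was the fourth. RASSF4 was among those above siCont, at 0.48 in siPF at its brightest probe set and at 1.19, 0.10, 2.02 and 1.07 at its 4 others. In siPF against siB7-H3, 3 of the list were past 2-fold lower, ASS1, POU4F1 and ABAT, and the median was -0.52. Over all 9451 genes under the rule in that comparison, 0.645% were past 2-fold lower and 0.688% higher, with a median of 0.0012. The lists overlap, since CXCR4, MET, FGFR4 and MYOD1 stand on both of the last 2. SKP2 and IGF1R stand on the lists of FOXO regulators and fusion targets, and FOXF1 on those of FOX genes and fusion targets. IRS2 and INSR stand on the lists of FOXO regulators and FOXO targets.

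**Figure D4:**
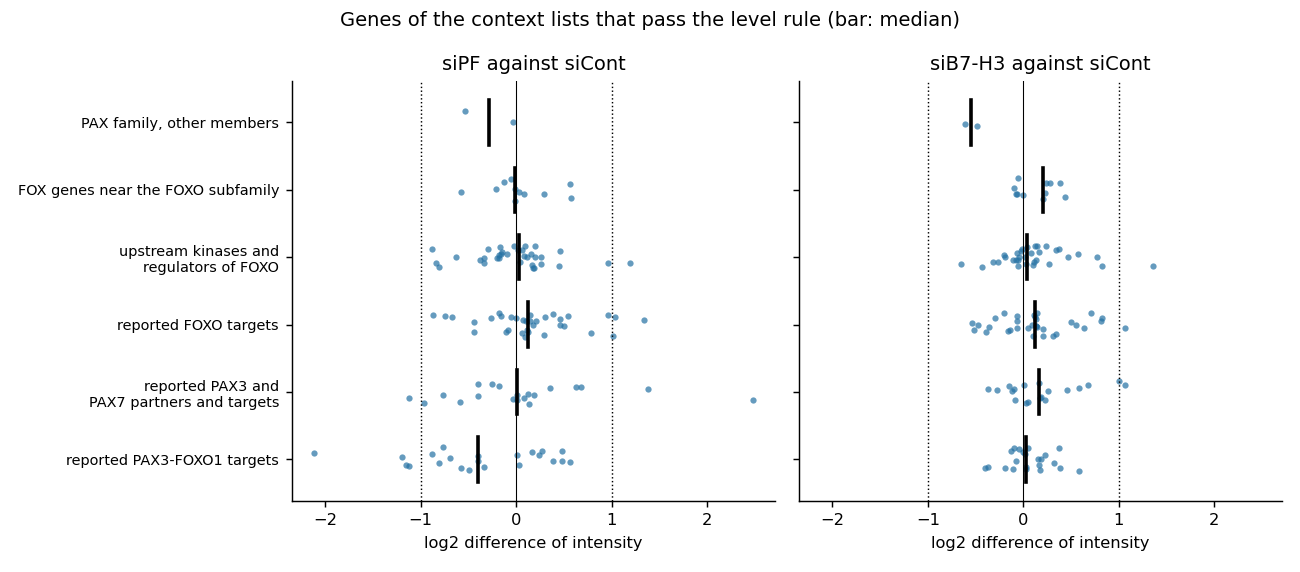
Log2 difference to siCont of each listed gene that passed the level rule (points, 1 per gene; vertical bars are list medians; dotted lines at 2-fold), for siPF and siB7-H3. Reported PAX3-FOXO1 targets had medians of -0.40 for siPF and 0.03 for siB7-H3, and points were moved up or down at random for display.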

How the data were processed

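Intensities of 54675 probe sets on 3 arrays were used, deposited by the authors on a linear scale and made in Affymetrix Expression Console 1.4.1, with a summarization method and a scaling target that are not given in the sources used here. Each array had a mean of 500.1 once 2% of its values were trimmed at either end. Detection calls were not used. Intensities were taken to log2 with no pseudocount. Names come from the platform annotation, with symbols updated by gene identifier for 41037 of 41091 probe sets with 1 gene. Where a gene had several probe sets, the one brightest on average over the arrays stood for it. No test was made. The members, the 6 gene lists, written from general knowledge, and the alternatives were chosen with earlier results of these data known. All members were named, then listed genes past 2-fold under the level rule, up to 4 further examples per list, and the 5 genes nearest to FOXO1. Python 3.11.15, numpy 2.4.6, pandas 2.3.3 and matplotlib 3.10.9 were used. The computations were checked on simulated data. Start regions are from RefSeq (GRCh38.p14).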

Additional observations from a re-analysis of the deposited data

How the results depend on the processing

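Centring each array on its median and quantile normalization left the counts of member probe sets past 2-fold at 4, 2 and 4 for siPF against siCont, siB7-H3 against siCont and siPF against siB7-H3, and a pseudocount of 32 gave 3, 2 and 3. With a floor at the 60th percentile of each array the counts were 1, 0 and 1. Without probe sets of the suffixes _x_at and _s_at, which leaves no FOXO1 probe set, they were 2, 2 and 2. Under the 60th percentile level rule they were 2, 0 and 2, also with the percentile taken over all probe sets, an alternative chosen after seeing the data, and under a 75th percentile rule 1, 0 and 0. The floor put FOXO1 at 202723_s_at at -0.66 in siPF against siCont and -0.72 against siB7-H3. As siB7-H3 and siCont are under 2-fold over the floor there, this was fixed by construction. For PAX7 at 208060_at the floor gave -0.0089 in siB7-H3, since both arrays lay under it, and the median over the PAX7 probe sets gave -0.86, with the sign turned. With the median over probe sets, FOXO1 was at -2.02 in siPF against siCont and -2.08 against siB7-H3, and the listed genes past 2-fold in siPF numbered 5 in place of 10, against 5 and 4 in siB7-H3. Of 230 further values for single probe sets or genes under alternatives, 218 stayed on their side of 2-fold, 9 were no longer past it, 1 was newly past it (PAX7 in siPF against siB7-H3, 2.43 as the median over probe sets) and 2 were the PAX7 values with the sign turned. For values under 2-fold a change of sign was not counted. With the median over probe sets, PAX3 went from -0.21 to 0.62 in siPF against siCont. Against siB7-H3 it went from -0.27 to 0.43 in siPF. FOXO1 went from -0.06 to 0.06 in siB7-H3 against siCont. No paired analysis was possible because each condition had 1 array, and for the same reason no array could be left out. The number of arrays limits the precision.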
